A study of Mus musculus with 16 samples.

Results

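The p53 target genes described here are 10 rows of the expression table, chosen by name: Cdkn1a, Btg2, Ccng1, Phlda3, Sesn1, Sesn2, Trp53inp1, Zmat3, Mdm2 and Trp53, out of 43437 genes. Trp53 encodes p53 itself and the other 9 are genes that p53 is known to activate. They were read in 16 libraries of mouse 8-cell embryos, each made from 10 pooled embryos (about 80 cells). Zygotes had been injected with double-stranded RNA (dsRNA), an agent that removes transcripts of its own sequence. It was directed against Tfap2c (Tfap2c knockdown), against Tead4 (Tead4 knockdown), against both (double knockdown) or against GFP (GFP control), with 4 libraries in each group. Every embryo was therefore injected, and no library of uninjected embryos was analysed here. Within a group, libraries B1 and B2 came from cross B, with C57BL/6J×DBA/2J mothers, and libraries A1 and A2 from cross A, with C57BL/6J×CBA/J mothers. The fathers are labelled as hybrids of C57BL/6J with DBA. The labels name the cross but no batch, so cross and any batch that follows it cannot be told apart.

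p53 is a transcription factor that is held low by the ubiquitin ligase MDM2 and is freed by DNA damage and other stress. It then binds a pair of half-sites in its target genes and raises transcripts that stop the cell cycle, restrain growth, repair DNA or lead to cell death, and MDM2 itself among them, which closes a feedback loop. Much of its control acts on the protein, so the mRNA of Trp53 is not a measure of p53 activity. Tfap2c encodes an AP-2 transcription factor and Tead4 a TEAD transcription factor, both known for switching on trophectoderm genes in the early mouse embryo.

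Values are FPKM, fragment counts scaled to transcript length and library size, as the authors deposited them. All 10 members were among the 11422 genes that reached 1 FPKM in at least 4 libraries and were tested. Zmat3 reached that level in 1 of its 4 control libraries and passed mainly through knockdown libraries. Changes are differences of log2(FPKM + 1), which understate the change of low genes, with the standard error (SE) from limma. A change passed at an adjusted p under 0.05 over all genes tested. Means are given with their SD over 4 libraries, and that SD spans both crosses. The labels do not say that libraries came from separate cultures, and the p values rest on differences among these pools of embryos. In bulk samples, fewer cells that express a gene and less RNA per cell cannot be told apart.

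The libraries were alike in size and content. FPKM sums ran from 799260 to 874436, relative depth from 0.873 to 1.12 of the mean, and 10049 to 10504 genes reached 1 FPKM. Libraries of the same group and cross correlated at 0.962 to 0.976 on the log2 scale. Mean Tfap2c mRNA was 15.8 FPKM where Tfap2c was targeted alone and 16.2 FPKM where both were, against 35.7 FPKM in the control. Mean Tead4 mRNA was 7.66 FPKM where Tead4 was targeted alone and 9.49 FPKM where both were, against 48.6 FPKM in the control. Tead4 was also lower in the Tfap2c knockdown, at 28.3 FPKM (log2 change -0.79, limma adjusted p = 0.0192). All 8 embryo markers were present, and their summed FPKM ran from 9855 to 11199 with Tfap2c depleted, from 11396 to 13544 with Tead4 depleted and from 10055 to 12929 with both depleted, against 13141 to 15576 in the control. Dppa3 and Dppa5a, with medians of 7230 and 4693 FPKM, made up most of that sum. Klf17 had the next highest median, 112 FPKM. Of 9 cumulus cell markers 0 reached 1 FPKM in any library, and the list summed to at most 0.165 FPKM. Of 6 blood markers only the alpha globin genes Hba-a1 and Hba-a2, near-identical copies whose reads can be split, reached 1 FPKM, and Hbb-bs, Hbb-bt and Ptprc were at 0 throughout. The summed FPKM of the blood list ran from 29.1 to 63.0 with Tfap2c depleted, from 20.3 to 50.8 with Tead4 depleted and from 40.7 to 77.7 with both depleted, against 9.86 to 26.8 in the control. The embryo and blood sums differed between groups, and their part in the results was not tested. Of 6 sperm markers only Odf2 reached 1 FPKM.

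Promoter windows of 300 bases, from 250 before to 50 after the start, were taken from RefSeq (GRCm38.p6, the assembly called mm10) for 8 of the 10 members, 10 windows in all. They were searched on both strands for the p53 half-site, a degenerate motif of 10 bases, for the AP-2 motif GCCNNNGGC and for the TEAD motif GGAATG. A half-site was found in 5 of the 10 windows, those of Cdkn1a, Mdm2, Ccng1, Trp53 and Sesn1, and in 8.36% of all 32851 windows. A pair of half-sites with a spacer of up to 13 bases was found in 1 window, that of Cdkn1a, and in 0.0731% of all windows. The AP-2 motif was found in 2 windows, of Sesn1 and Mdm2, and in 16.6% of all windows. The TEAD motif was found in 1 window, of Phlda3, and in 14.7% of all. A match is a description of the letters and does not show that a factor binds there. Shown are the Cdkn1a window with the pair of half-sites, since Cdkn1a had the largest log2 change of the members in each knockdown, the Mdm2 window with both a half-site and an AP-2 motif, and both Sesn1 windows, which split these motifs between 2 start sites. Sequences run 5′ to 3′ on the gene's strand, and capitals mark the matches.
Cdkn1a, upstream start, chr17:29090729-29091028, plus strand: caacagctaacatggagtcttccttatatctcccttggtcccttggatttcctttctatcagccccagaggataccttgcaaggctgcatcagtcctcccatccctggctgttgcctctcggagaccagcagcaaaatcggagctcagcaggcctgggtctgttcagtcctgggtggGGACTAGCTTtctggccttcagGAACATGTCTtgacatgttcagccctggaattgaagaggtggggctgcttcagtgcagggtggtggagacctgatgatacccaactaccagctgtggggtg
Mdm2, chr10:117710709-117711008, minus strand: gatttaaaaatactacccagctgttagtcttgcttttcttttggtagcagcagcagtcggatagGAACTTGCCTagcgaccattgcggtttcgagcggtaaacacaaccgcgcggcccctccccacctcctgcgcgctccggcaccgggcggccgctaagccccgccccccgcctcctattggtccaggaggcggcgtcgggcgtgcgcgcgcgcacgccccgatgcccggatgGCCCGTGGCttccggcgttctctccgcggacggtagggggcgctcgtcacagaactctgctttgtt
Sesn1, first start, chr10:41810324-41810623, plus strand: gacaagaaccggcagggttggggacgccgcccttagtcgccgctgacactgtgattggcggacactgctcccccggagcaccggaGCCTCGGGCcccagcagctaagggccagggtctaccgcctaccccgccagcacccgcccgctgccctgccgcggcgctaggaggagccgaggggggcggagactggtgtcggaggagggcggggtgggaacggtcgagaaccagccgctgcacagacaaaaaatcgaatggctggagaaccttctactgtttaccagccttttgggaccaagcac
Sesn1, second start, chr10:41887189-41887488, plus strand: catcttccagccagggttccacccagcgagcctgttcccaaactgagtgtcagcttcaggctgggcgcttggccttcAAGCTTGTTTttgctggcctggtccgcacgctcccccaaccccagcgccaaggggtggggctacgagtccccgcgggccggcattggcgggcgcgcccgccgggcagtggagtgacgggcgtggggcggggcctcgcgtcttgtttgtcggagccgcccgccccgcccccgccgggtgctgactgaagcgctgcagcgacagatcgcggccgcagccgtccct
In the Cdkn1a window the capitals are 2 matches to the p53 half-site motif, GGACTAGCTT and GAACATGTCT, with 12 bases between them. They lie at positions 29090906 to 29090937, 2832 bases before the downstream start of the gene. The search allowed no mismatch. The bases directly after the second match, tgacatgttc, differ from the motif only at their first base and are not marked. The pair of matches need not be the pair that p53 binds. In the Mdm2 window the first run of capitals is a half-site (GAACTTGCCT) and the second an AP-2 motif (GCCCGTGGC). The first Sesn1 window holds an AP-2 motif (GCCTCGGGC) and the second a half-site (AAGCTTGTTT).

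Most of these genes were higher where Tfap2c was depleted. In the Tfap2c knockdown, of the 10 members 8 were higher than in the GFP control and 0 lower, where 16.3% of all genes tested were higher. The median log2 change of the members was 0.77, beside 0.06 over all genes. In the double knockdown 8 of 10 were higher, with a median of 0.78 beside 0.05, where 13.9% of all genes were higher. In the Tead4 knockdown 2 of 10, Cdkn1a and Sesn1, were higher, with a median of 0.43 beside 0.05, where 3.35% of all genes were higher. That count is 1 without control library A1 or B2. A further 3 members, Btg2, Sesn2 and Trp53inp1, had an unadjusted p under 0.05 in the Tead4 knockdown and did not pass. With the 2 called, 5 of 10 members stood under it, where 21.1% of all genes tested did. The members not called in the Tfap2c and double knockdowns were Phlda3 and Zmat3. The 3 comparisons share the 4 control libraries, so they are not independent of each other.

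**Figure D1:**
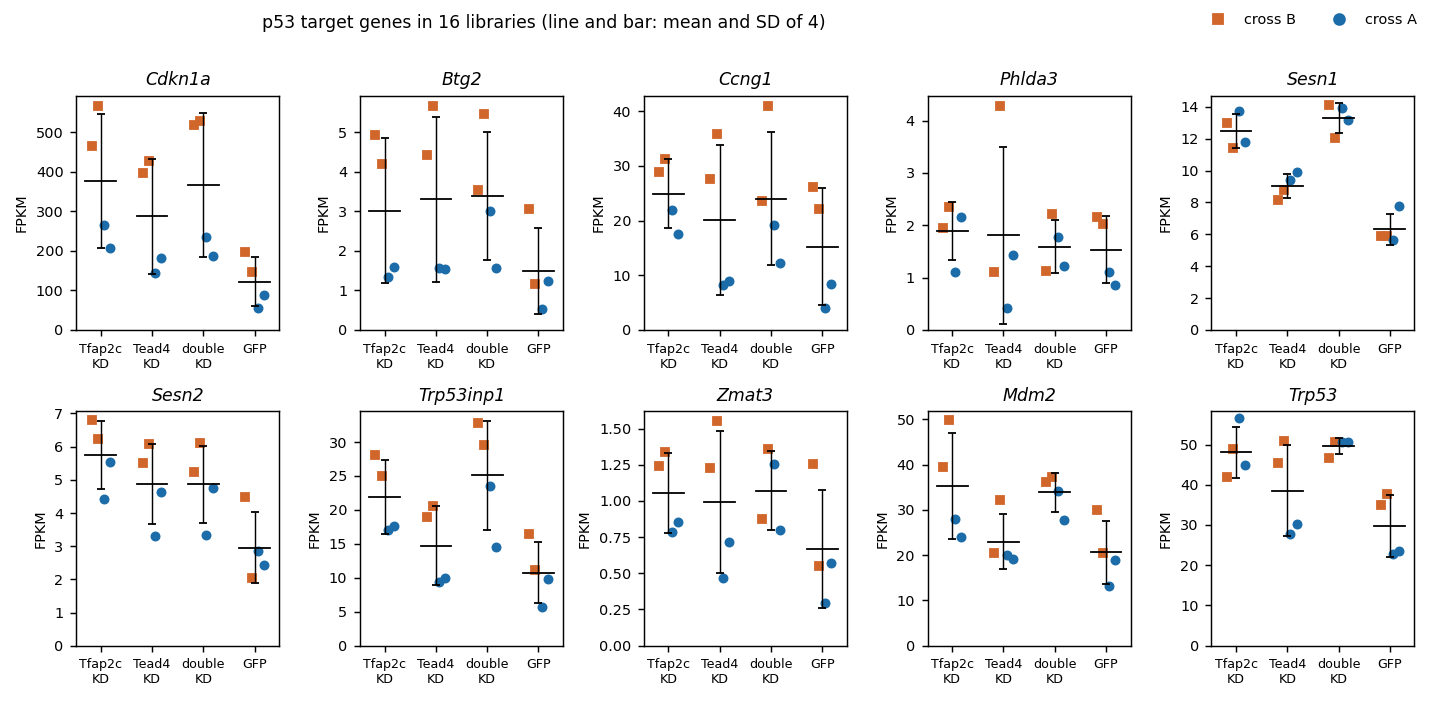
FPKM of the 10 genes in each of the 16 libraries, by knockdown (KD) and GFP control, with cross B as squares and cross A as circles; lines and bars are the mean and SD of 4 libraries. Cdkn1a stands at 207 to 567 FPKM in the Tfap2c knockdown against 56.2 to 197 FPKM in the control, and its cross B squares lie above its cross A circles in every group.

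Among the genes that act on the cell cycle, Cdkn1a (ENSMUSG00000023067, chromosome 17, 29090979 to 29100722) encodes p21, which inhibits cyclin-dependent kinases and is the best known arrest target of p53. Libraries B1, B2, A1 and A2 of the Tfap2c knockdown had 465, 567, 266 and 207 FPKM, and the other groups follow in the same order of libraries. With Tead4 depleted the values were 397, 426, 143 and 181 FPKM, with both factors depleted 518, 529, 236 and 186 FPKM, and with dsRNA against GFP 197, 147, 56.2 and 87.8 FPKM. All 4 Tfap2c knockdown libraries lay above all 4 controls, and in the other knockdowns every library lay above the controls of its own cross, while some cross A libraries lay below a cross B control. The Tfap2c knockdown averaged 376 ± 168 FPKM, the Tead4 knockdown 287 ± 145 FPKM and the double knockdown 367 ± 182 FPKM, compared with 122 ± 62.5 FPKM for the control. The ratios to the control mean were 3.08, 2.35 and 3.01. The log2 changes were 1.66 ± 0.14 (SE), 1.23 ± 0.14 and 1.59 ± 0.14. Their limma adjusted p values were 1.98e-06, 0.000145 and 4.92e-06. The call in the Tead4 knockdown was lost in 2 of 28 alternative fits, without a term for the cross (adjusted p = 0.229) and within cross A alone (0.0507).

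Btg2 (ENSMUSG00000020423, chromosome 1, 134074865 to 134079155) encodes an antiproliferative protein that promotes mRNA deadenylation. It was a low transcript, at 4.94, 4.20, 1.33 and 1.59 FPKM in libraries B1, B2, A1 and A2 of the Tfap2c knockdown. The Tead4 knockdown gave 4.43, 5.66, 1.57 and 1.54 FPKM and the double knockdown 3.54, 5.45, 3.00 and 1.56 FPKM, while the GFP control gave 3.05, 1.16, 0.531 and 1.24 FPKM. The control library B1 overlapped the cross A libraries of every knockdown. Btg2 rose in the Tfap2c knockdown by 0.66 ± 0.22 (SE, limma adjusted p = 0.0375) and in the double knockdown by 0.83 ± 0.22 (adjusted p = 0.0134). The log2 change of 0.74 in the Tead4 knockdown did not pass (adjusted p = 0.0614). The call in the Tfap2c knockdown is lost without control library A1 (adjusted p = 0.0901) or B2 (0.133), and without Tfap2c knockdown library A2 (0.0633), B1 (0.0976) or B2 (0.0775). In all it was lost in 12 of 28 alternative fits, with adjusted p up to 0.358, both crosses taken alone among them. Btg2 passes in the Tead4 knockdown without control library A2 (log2 change 0.90, adjusted p = 0.0407).

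Ccng1 (ENSMUSG00000020326, chromosome 11, 40748552 to 40755309) encodes cyclin G1, a partner of the phosphatase PP2A. Libraries B1, B2, A1 and A2 of the Tfap2c knockdown had 29.0, 31.3, 21.8 and 17.6 FPKM. With Tead4 depleted the values were 27.5, 35.8, 8.23 and 8.93 FPKM, with both factors depleted 23.5, 41.0, 19.2 and 12.3 FPKM, and with dsRNA against GFP 26.2, 22.2, 3.96 and 8.42 FPKM. The difference was wider in cross A, where the Tfap2c knockdown mean was 19.7 FPKM against 6.19 FPKM in controls, than in cross B, where it was 30.1 FPKM against 24.2 FPKM in controls. Ccng1 rose by 0.95 ± 0.28 (SE, limma adjusted p = 0.0199) in the Tfap2c knockdown and by 0.81 ± 0.28 (adjusted p = 0.0478) in the double knockdown. The change of 0.43 in the Tead4 knockdown did not pass (adjusted p = 0.437). The call in the double knockdown was lost in 20 of 28 alternative fits, with adjusted p up to 0.420, so it lies at the threshold. It was lost without any 1 of 11 libraries: A2 or B2 of the Tfap2c knockdown, A1, A2 or B1 of the Tead4 knockdown, A1, A2 or B2 of the double knockdown, and A1, A2 or B2 of the control. Without control library A1 the change was 0.54 (adjusted p = 0.160). The call in the Tfap2c knockdown was lost without its library A1 (adjusted p = 0.0647) or A2 (0.0534), or without control library A1, where the change was 0.68 (0.0686). In all that call was lost in 6 of 28 alternative fits. Among them were the fit without a term for the cross (0.249) and cross B alone, where the change was 0.31 (0.430).

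**Figure D2:**
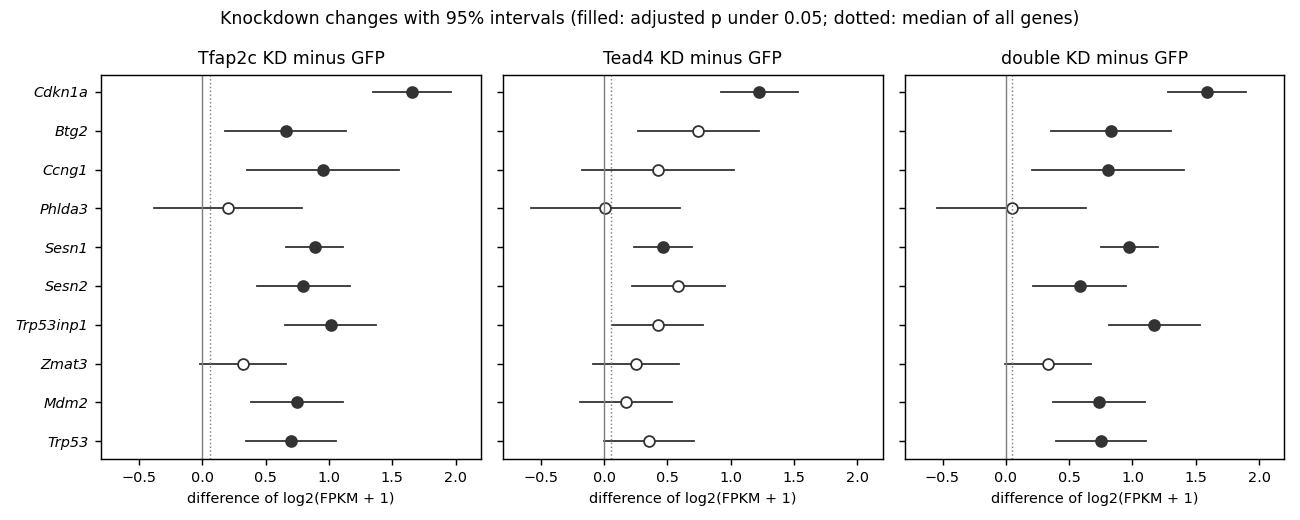
Difference of log2(FPKM + 1) between each knockdown (KD) and the GFP control for the 10 genes, with 95% confidence intervals from limma; filled points passed at an adjusted p under 0.05 and dotted lines mark the median of all genes. Cdkn1a has the largest change in each panel, at 1.66, 1.23 and 1.59, and the intervals of Phlda3 and Zmat3 include 0 in all 3.

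Among the genes that restrain growth, the sestrins inhibit the mTORC1 kinase and protect against oxidants. Sesn1 (ENSMUSG00000038332, chromosome 10, 41810574 to 41908436) was the one member whose knockdown libraries lay above all 4 controls in every knockdown. Libraries B1, B2, A1 and A2 of the Tfap2c knockdown had 12.97, 11.4, 13.7 and 11.8 FPKM. The Tead4 knockdown gave 8.16, 8.76, 9.41 and 9.90 FPKM and the double knockdown 14.1, 12.04, 13.9 and 13.2 FPKM, while the GFP control gave 5.92, 5.88, 5.67 and 7.78 FPKM. The Tead4 knockdown thus lay between the control and the other groups without overlap. Sesn1 rose by 0.89 ± 0.11 (SE, limma adjusted p = 2.73e-05) in the Tfap2c knockdown, by 0.47 ± 0.11 (adjusted p = 0.0168) in the Tead4 knockdown and by 0.98 ± 0.11 (adjusted p = 1.75e-05) in the double knockdown. The Tead4 call is lost without control library A1 (adjusted p = 0.0590) or B2 (0.0503), and within cross A alone (0.206) or cross B alone (0.239).

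Sesn2 (ENSMUSG00000028893, chromosome 4, 132492804 to 132510456), which the stress factor ATF4 is also known to activate, stood at 6.82, 6.23, 4.43 and 5.53 FPKM in libraries B1, B2, A1 and A2 of the Tfap2c knockdown. With Tead4 depleted the values were 5.51, 6.08, 3.32 and 4.63 FPKM, with both factors depleted 5.25, 6.11, 3.34 and 4.77 FPKM, and with dsRNA against GFP 4.49, 2.04, 2.84 and 2.43 FPKM. One control, B1, overlapped all 3 knockdowns, and within its own cross every knockdown library was above the controls. Sesn2 rose by 0.80 ± 0.17 (SE, limma adjusted p = 0.00303) in the Tfap2c knockdown and by 0.58 ± 0.17 (adjusted p = 0.0219) in the double knockdown. Almost the same change in the Tead4 knockdown, 0.59, did not pass (adjusted p = 0.0566), and it passes without control library B1 (adjusted p = 0.0315). In the double knockdown the call is lost without control library B2 (0.0696) or double knockdown library A2 (0.0679) or B2 (0.0568). In all it was lost in 7 of 28 alternative fits, with adjusted p up to 0.209, both crosses taken alone among them. The call in the Tfap2c knockdown was lost in 2 of 28, cross A alone (adjusted p = 0.0697) and cross B alone (0.0640).

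Phlda3 (ENSMUSG00000041801, chromosome 1, 135766085 to 135769134) encodes a repressor of the kinase AKT. It was a low transcript as well, with 1.94, 2.35, 1.11 and 2.16 FPKM in libraries B1, B2, A1 and A2 of the Tfap2c knockdown. The Tead4 knockdown gave 1.10, 4.27, 0.428 and 1.43 FPKM and the double knockdown 1.13, 2.21, 1.78 and 1.23 FPKM, while the GFP control gave 2.15, 2.02, 1.11 and 0.860 FPKM. All groups overlapped. The log2 changes were 0.20, 0.01 and 0.04 in the Tfap2c, Tead4 and double knockdowns, with 95% intervals of -0.38 to 0.79, -0.58 to 0.60 and -0.54 to 0.63. The sign in the Tead4 and double knockdowns changes under several alternatives, among them a median-ratio scaling (-0.02) in the Tead4 knockdown.

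Of the genes tied to cell death and RNA control, Trp53inp1 (ENSMUSG00000028211, chromosome 4, 11156441 to 11174379) encodes a stress-induced nuclear protein that promotes p53 activity and autophagy. Libraries B1, B2, A1 and A2 of the Tfap2c knockdown had 28.1, 25.0, 17.1 and 17.6 FPKM. With Tead4 depleted the values were 19.0, 20.6, 9.44 and 10.0 FPKM, with both factors depleted 32.8, 29.6, 23.5 and 14.6 FPKM, and with dsRNA against GFP 16.5, 11.2, 5.69 and 9.79 FPKM. All Tfap2c knockdown libraries were above all controls, while library A2 of the double knockdown and the cross A libraries of the Tead4 knockdown were not. Trp53inp1 rose by 1.01 ± 0.17 (SE, limma adjusted p = 0.000444) in the Tfap2c knockdown and by 1.17 ± 0.17 (adjusted p = 0.000162) in the double knockdown. The change of 0.42 in the Tead4 knockdown did not pass (adjusted p = 0.155).

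Zmat3 (ENSMUSG00000027663, chromosome 3, 32334792 to 32365665) encodes a zinc finger protein that binds RNA, and RefSeq places a long noncoding RNA, 4930429B21Rik, over 177 bases of its span. Whether reads were counted by strand is not stated. It was the lowest of the 10 genes by median over the 16 libraries, at 0.864 FPKM. Its FPKM ran from 0.787 to 1.34 with Tfap2c depleted, from 0.467 to 1.55 with Tead4 depleted and from 0.800 to 1.36 with both depleted, against 0.298 to 1.25 in the control. The control library B1, at 1.25 FPKM, overlapped every knockdown. The log2 changes of 0.32, 0.25 and 0.33 did not pass (limma adjusted p = 0.146, 0.413 and 0.146). At 1 FPKM the added 1 in the log2 scale holds changes down, and with 0.1 in its place the largest of these changes was 0.72, also not called (adjusted p = 0.124).

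Mdm2 and Trp53 form the feedback loop. Mdm2 (ENSMUSG00000020184, chromosome 10, 117688875 to 117710758) stood at 39.5, 49.9, 28.0 and 23.9 FPKM in libraries B1, B2, A1 and A2 of the Tfap2c knockdown. The Tead4 knockdown gave 20.6, 32.2, 20.1 and 19.1 FPKM and the double knockdown 36.1, 37.3, 34.1 and 27.9 FPKM, while the GFP control gave 30.0, 20.4, 13.2 and 19.0 FPKM. The Tead4 knockdown overlapped the controls, and within each cross the other knockdowns lay above them. Mdm2 rose by 0.75 ± 0.17 (SE, limma adjusted p = 0.00446) in the Tfap2c knockdown and by 0.73 ± 0.17 (adjusted p = 0.00561) in the double knockdown, while the change of 0.17 in the Tead4 knockdown did not pass (adjusted p = 0.642). Each call was lost in 2 of 28 alternative fits. For the Tfap2c knockdown these were cross A alone (adjusted p = 0.0513) and cross B alone (0.0599). For the double knockdown they were the fit without a term for the cross (0.0579) and cross B alone (0.204).

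Trp53 (ENSMUSG00000059552, chromosome 11, 69580348 to 69591873) stood at 42.0, 48.8, 56.5 and 44.8 FPKM in libraries B1, B2, A1 and A2 of the Tfap2c knockdown. With Tead4 depleted the values were 45.3, 50.9, 27.7 and 30.2 FPKM, with both factors depleted 46.7, 50.6, 50.5 and 50.7 FPKM, and with dsRNA against GFP 34.9, 37.7, 22.8 and 23.5 FPKM. Every library of the Tfap2c and double knockdowns was above every control. Within cross B alone the changes of 0.31 and 0.41 did not pass (adjusted p = 0.130 and 0.0807). Trp53 rose by 0.70 ± 0.17 (SE, limma adjusted p = 0.00569) in the Tfap2c knockdown and by 0.75 ± 0.17 (adjusted p = 0.00402) in the double knockdown. The change of 0.35 in the Tead4 knockdown did not pass (adjusted p = 0.244), although each of its libraries was above the controls of its own cross.

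Counting genes whose groups did not overlap used no model. In the Tfap2c knockdown 4 members, Cdkn1a, Sesn1, Trp53inp1 and Trp53, had every library above every control, as did 12.2% of all genes tested. In the Tead4 knockdown it was 1 member, Sesn1, and 6.07% of genes. In the double knockdown it was 2 members, Sesn1 and Trp53, and 11.3% of genes. With each library set only against the controls of its own cross, 8 members were above in the Tfap2c knockdown (19.7% of genes), 5 in the Tead4 knockdown (13.8%) and 7 in the double knockdown (18.6%).

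By mean FPKM, which is scaled to length, Cdkn1a was the most abundant member in every group, followed by Trp53 and Mdm2. Ccng1 and Trp53inp1 came next, and their order differed between groups by less than their SD, which spans both crosses. In the control, Ccng1 was above Trp53inp1 in both cross B libraries and below it in both cross A libraries. In the Tead4 knockdown and the control, Mdm2 and Ccng1 also lay within their SD of each other. In the Tead4 knockdown, Ccng1 was above Mdm2 in both cross B libraries and below it in both cross A libraries. Sesn1 stood at 13.3 ± 0.948 FPKM in the double knockdown and 6.31 ± 0.987 FPKM in the control, above Sesn2 at 4.87 ± 1.16 and 2.95 ± 1.08 FPKM. Btg2, Phlda3 and Zmat3 were lowest. In the control they stood at 1.49 ± 1.09, 1.54 ± 0.646 and 0.668 ± 0.410 FPKM. Btg2 and Phlda3 did not differ beyond their spread there, and Phlda3 was above Zmat3 in all 4 control libraries.

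The double knockdown was compared with each single knockdown to ask whether depleting both factors moved these genes further. Neither transcript was removed in full. Mean Tfap2c mRNA was 44.3% of the control in the Tfap2c knockdown and 45.3% in the double knockdown. Mean Tead4 mRNA was 15.7% in the Tead4 knockdown, 19.5% in the double knockdown and 58.2% in the Tfap2c knockdown. The Tfap2c knockdown was thus itself a partial depletion of Tead4 mRNA. Against the Tfap2c knockdown, 0 of 10 members passed in limma and 0 had an unadjusted p under 0.05, where 0.14% of all genes passed and 1087 genes had an unadjusted p under 0.05. The log2 difference for Cdkn1a was -0.07, with a 95% interval of -0.38 to 0.24, and that for Sesn1 was 0.09 (-0.14 to 0.31). The interval for Trp53inp1 ran from -0.20 to 0.52 and that for Ccng1 from -0.74 to 0.46. These intervals bound the differences and do not show that the groups are alike. Against the Tead4 knockdown, the double knockdown had 3 members higher, Sesn1 (0.51 ± 0.11 SE, adjusted p = 0.00280), Trp53inp1 (0.75 ± 0.17, adjusted p = 0.00470) and Mdm2 (0.56 ± 0.17, adjusted p = 0.0266), where 10.9% of all genes were higher. The Tfap2c knockdown had 4 members higher than the Tead4 knockdown. These were Cdkn1a (0.43 ± 0.14, adjusted p = 0.0354), Sesn1 (0.42 ± 0.11, adjusted p = 0.00724), Trp53inp1 (0.59 ± 0.17, adjusted p = 0.0157) and Mdm2 (0.57 ± 0.17, adjusted p = 0.0200), where 13.8% of all genes were higher. Without Tfap2c knockdown library B2 or Tead4 knockdown library B1 that count was 2. Sesn1, Trp53inp1 and Mdm2 thus passed in both contrasts with the Tead4 knockdown. Within cross B alone 0 members passed in either contrast, and without a term for the cross 1 did in each. Btg2 and Sesn2 did not pass, with differences of the Tfap2c from the Tead4 knockdown of -0.08 (95% interval -0.56 to 0.39) and 0.21 (-0.16 to 0.58).

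If the single changes added up on the log2 scale, Cdkn1a would have changed by 2.88 in the double knockdown, and it changed by 1.59. The difference of -1.29 ± 0.20 (SE) passed in limma (adjusted p = 0.0192), and Cdkn1a was the 1 member of 10 lower than the sum, where 0.368% of all genes were. It was -1.24 in cross B and -1.35 in cross A. In FPKM, the double knockdown mean was 245 FPKM above the control mean and the single knockdown means together 419 FPKM above it. The call held without each of the 16 libraries in turn, and it was lost without a filter on low values, without a term for the cross, and within either cross alone. The other 9 members had negative values from -0.17 (Phlda3) to -0.80 (Sesn2) that did not pass. The median over all genes was -0.06. Tead4 mRNA was lower than in the control in both single knockdowns, so their sum does not join separate depletions. The part of this in the non-additive values was not tested.

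Most of these genes also differed in level between the crosses. Over all groups, 7 of 10 members were higher in cross B than in cross A and 0 lower, where 17.2% of all genes tested were higher. Ccng1 was higher by 1.30 ± 0.20 (SE, limma adjusted p = 0.000237), with means of 29.6 ± 6.33 FPKM in cross B and 12.6 ± 6.31 FPKM in cross A (SD, 8 libraries each). Cdkn1a was higher by 1.26 ± 0.10 (adjusted p = 2.03e-06), with means of 405 ± 155 FPKM in cross B and 170.4 ± 71.4 FPKM in cross A. Btg2 was higher by 0.96 (adjusted p = 0.000400), Trp53inp1 by 0.76 (adjusted p = 0.000276) and Mdm2 by 0.50 (adjusted p = 0.00583). Sesn2 and Zmat3 were higher by 0.35 and 0.34 (adjusted p = 0.0398 and 0.0300). Sesn1 (-0.11, adjusted p = 0.289), Phlda3 (0.46, adjusted p = 0.0836) and Trp53 (0.28, adjusted p = 0.0775) did not pass. Sesn1, called in all 3 knockdowns, had a 95% interval of -0.27 to 0.05 between the crosses, and Cdkn1a one of 1.05 to 1.48. In the control alone, Cdkn1a averaged 172 FPKM in cross B against 72.0 FPKM in cross A. Ccng1 averaged 24.2 FPKM in cross B controls against 6.19 FPKM in cross A controls, a ratio of 3.90. Mitochondrial transcripts took 8.30 ± 1.06% of FPKM in cross B and 10.3 ± 1.18% in cross A, Odf2 was higher and both alpha globin genes were lower in cross B, and the part of these in the cross difference was not tested.

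**Figure D3:**
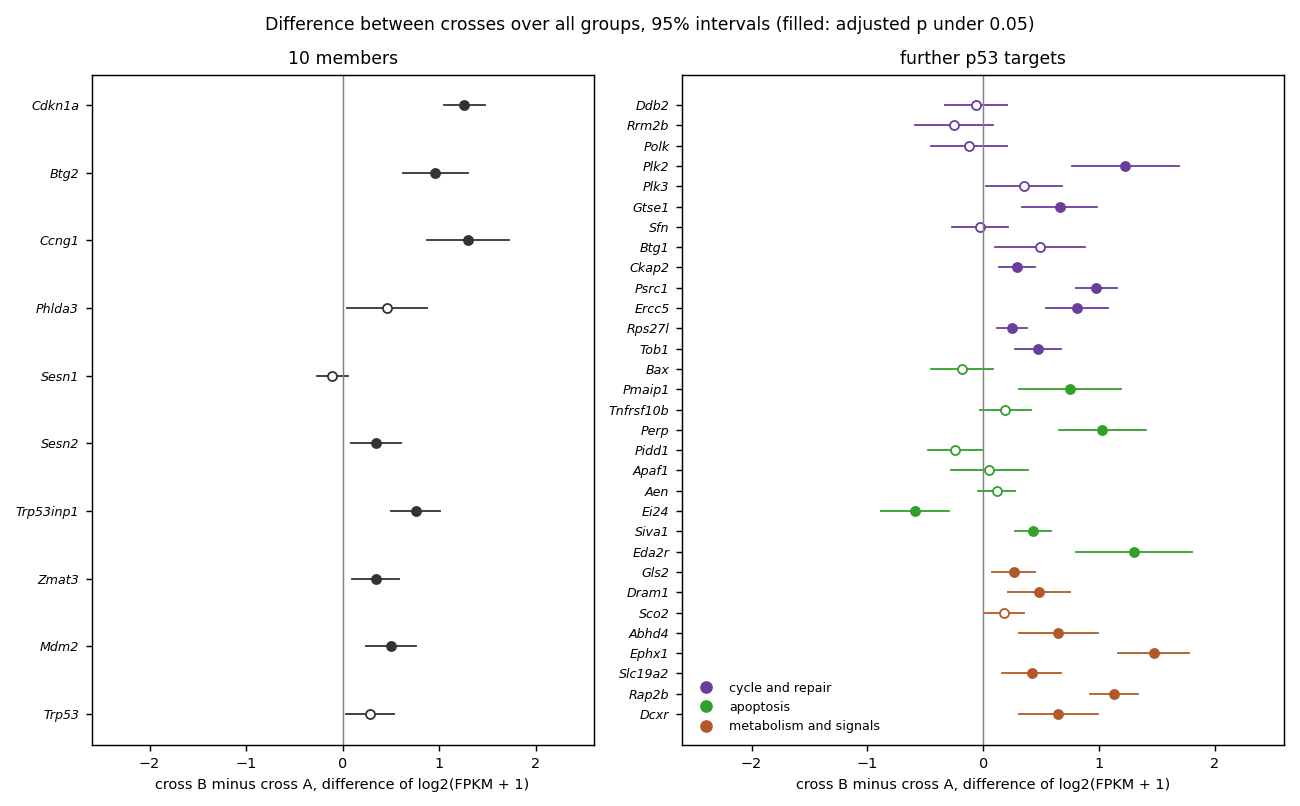
Difference of log2(FPKM + 1) between cross B and cross A over all 4 groups, with 95% intervals from limma, for the 10 members (left) and 31 further p53 targets coloured by role (right); filled points passed at an adjusted p under 0.05. Of the members 7 lie right of 0 and passed, and of the further targets 18 did, with Ei24 the 1 that passed on the left.

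Whether a knockdown acted differently in the crosses was tested by an interaction term. Of all genes tested, 0% passed for the Tfap2c, 0% for the Tead4 and 0% for the double knockdown in limma, and so no member did. At an unadjusted p under 0.05 stood 2 members and 1888 genes for the Tfap2c knockdown, 0 members and 797 genes for the Tead4 knockdown, and 1 member and 1284 genes for the double knockdown. For Trp53 the change in the Tfap2c knockdown was 0.31 in cross B and 1.09 in cross A, a difference of -0.78 ± 0.18 (SE, unadjusted p = 0.00102, limma adjusted p = 0.0916). In the double knockdown it was 0.41 in cross B and 1.10 in cross A, a difference of -0.68 ± 0.18 (unadjusted p = 0.00256, limma adjusted p = 0.185). In FPKM, Trp53 averaged 45.4 in cross B and 50.7 in cross A of the Tfap2c knockdown, against 36.3 in cross B and 23.2 in cross A of the control. For Ccng1 the change in the Tfap2c knockdown was 0.31 in cross B and 1.59 in cross A, a difference of -1.28 ± 0.45 (unadjusted p = 0.0143, limma adjusted p = 0.191). Cdkn1a changed by 1.59 in cross B and 1.72 in cross A in the Tfap2c knockdown, with a 95% interval of the difference from -0.81 to 0.54. Depletion was also unequal: in the Tfap2c knockdown, mean Tfap2c mRNA was 55.9% of the control in cross B and 35.7% in cross A. That difference did not pass (0.62, unadjusted p = 0.00217, limma adjusted p = 0.114). Mean Tead4 mRNA in the same knockdown was 76.1% in cross B and 42.8% in cross A. The part of unequal depletion in the differences of Trp53 and Ccng1 was not tested.

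**Figure D4:**
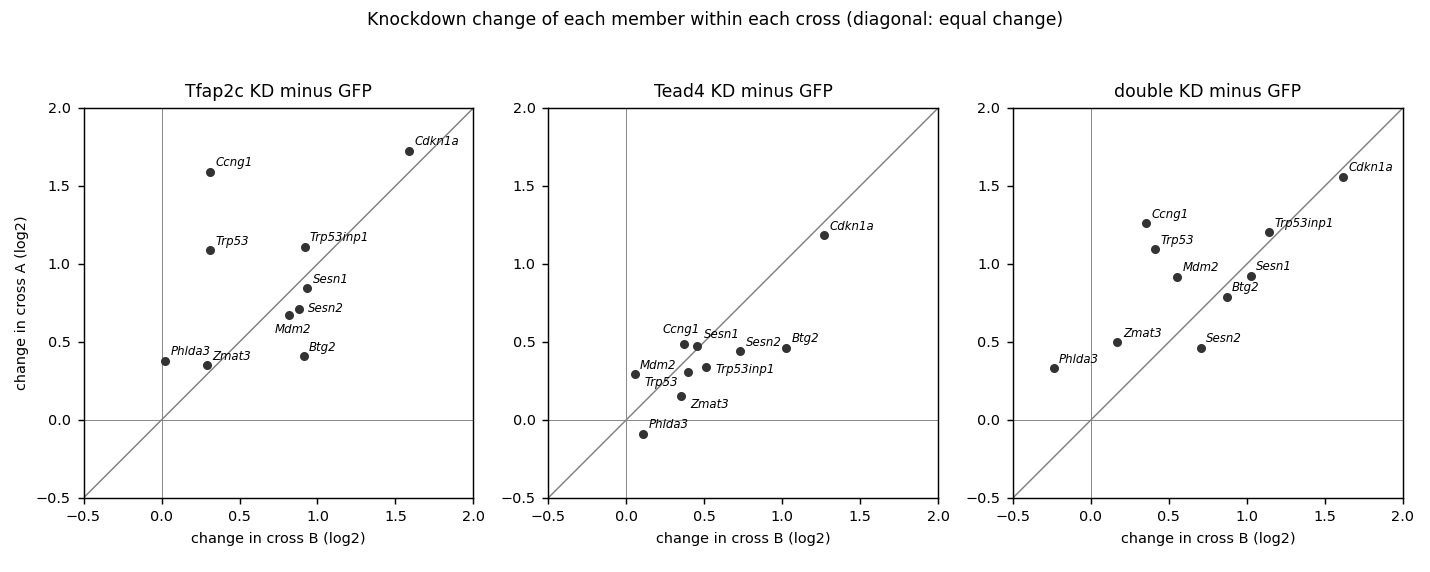
Change of each gene against the GFP control of its own cross, as a difference of log2(FPKM + 1), in cross B (horizontal) and cross A (vertical) for the 3 knockdowns; each point rests on 2 libraries against 2 and the diagonal marks equal change. Ccng1 (0.31 and 1.59) and Trp53 (0.31 and 1.09) lie farthest above the diagonal in the Tfap2c knockdown, and Cdkn1a lies near it in each panel.

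The 10 members were set beside 45 other known p53 targets, of which 31 were measured. In the Tfap2c knockdown 9 of the 31 were higher and 5 lower, in the Tead4 knockdown 4 were higher and 1 lower, and in the double knockdown 6 were higher and 2 lower. Their median log2 changes were 0.36, 0.22 and 0.25, beside 0.06, 0.05 and 0.05 over all genes. Over all genes tested, 16.3% were higher and 13.2% lower in the Tfap2c knockdown, 3.35% and 2.78% in the Tead4 knockdown, and 13.9% and 11.3% in the double knockdown. The share of further targets that were lower was thus near that of all genes in the Tfap2c knockdown. These lists were drawn up with earlier results of these data known, and no list was tested against other genes.

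Among 13 measured targets in cell cycle and repair, 4 were higher and 2 lower in the Tfap2c knockdown, where 16.3% and 13.2% of all genes were. In the Tead4 knockdown 2 were higher and 1 lower, where 3.35% and 2.78% of all genes were. The double knockdown also had 2 higher and 1 lower, where 13.9% and 11.3% of all genes were. Rrm2b, a ribonucleotide reductase subunit used in repair, stood at 5.68 ± 0.407 FPKM with Tfap2c depleted and 6.65 ± 3.11 FPKM with both depleted, against 2.22 ± 0.892 FPKM in the control (log2 changes 1.10 and 1.22, limma adjusted p = 0.00191 and 0.00103). Tob1, an antiproliferative relative of Btg2, rose by 1.10 and 0.96 in the same knockdowns (adjusted p = 2.82e-05 and 0.000113). Plk2, a polo-like kinase, rose in the Tfap2c knockdown (1.21, adjusted p = 0.00835) and the Tead4 knockdown (1.27, adjusted p = 0.0235). Sfn, which encodes 14-3-3 sigma, fell to 364 ± 68.0 FPKM with Tfap2c depleted and 388 ± 81.7 FPKM with both depleted, against 563 ± 61.0 FPKM in the control (adjusted p = 0.00728 and 0.0180). Psrc1, a spindle protein, fell in the Tfap2c knockdown (-0.57, adjusted p = 0.00204) and rose in the Tead4 knockdown (0.69, adjusted p = 0.00254). Btg1 fell in the Tead4 knockdown, to 12.01 ± 3.49 FPKM against 29.1 ± 10.0 FPKM in the control (adjusted p = 0.0117).

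Among 10 measured targets in apoptosis, 2 were higher and 1 lower in the Tfap2c knockdown, 0 and 0 in the Tead4 knockdown, and 1 and 1 in the double knockdown. These counts lie near the shares over all genes, 16.3% and 13.2% in the Tfap2c knockdown, 3.35% and 2.78% in the Tead4 knockdown, and 13.9% and 11.3% in the double knockdown. At an unadjusted p under 0.05 stood 10 of them in the Tfap2c knockdown, where 40.1% of all genes did, and 3 in the Tead4 knockdown, where 21.1% did. Ei24, an endoplasmic reticulum protein, stood at 64.9 ± 8.45 FPKM with Tfap2c depleted and 50.9 ± 12.9 FPKM with both depleted, against 23.6 ± 8.10 FPKM in the control (limma adjusted p = 7.11e-05 and 0.000847). Bax, which opens the outer mitochondrial membrane, rose in the Tfap2c knockdown to 90.8 ± 19.0 FPKM, against 62.5 ± 8.36 FPKM in the control (adjusted p = 0.0382). Perp, a desmosomal membrane protein, fell to 10.8 ± 3.51 FPKM with Tfap2c depleted and 9.93 ± 7.03 FPKM with both depleted, against 37.1 ± 13.6 FPKM in the control (adjusted p = 0.000195 and 7.87e-05). Pmaip1, which encodes NOXA, averaged 2.95, 2.75 and 2.55 FPKM in the Tfap2c, Tead4 and double knockdowns, against 1.47 FPKM in the control, and did not pass (adjusted p = 0.0920, 0.245 and 0.190). Bbc3, which encodes PUMA, and Gadd45a were under the level tested, with highest values of 0.175 and 1.34 FPKM in any library.

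Among 8 measured targets in metabolism and signalling, 3 were higher and 2 lower in the Tfap2c knockdown, 2 and 0 in the Tead4 knockdown, and 3 and 0 in the double knockdown. The shares over all genes were 16.3% and 13.2%, 3.35% and 2.78%, and 13.9% and 11.3%. Sco2, an assembly factor of cytochrome c oxidase, was higher in all 3, at 28.6 ± 4.00, 20.7 ± 2.25 and 26.8 ± 3.99 FPKM, against 15.1 ± 2.10 FPKM in the control (limma adjusted p = 6.32e-05, 0.0369 and 0.000183). Slc19a2, a thiamine transporter, rose in the Tfap2c and double knockdowns (0.81 and 0.57, adjusted p = 0.00254 and 0.0236). Gls2, the p53-inducible glutaminase, rose in the double knockdown by 0.44 (adjusted p = 0.0161). Dram1, a lysosomal membrane protein, fell in the Tfap2c knockdown (-0.53, adjusted p = 0.0343) and rose in the Tead4 knockdown (0.87, adjusted p = 0.00838). Between the crosses, of these 3 lists 7 of 13, 4 of 10 and 7 of 8 were higher in cross B, and 0, 1 and 0 lower, where 17.2% of all genes were higher and 16.3% lower. Ephx1, an epoxide hydrolase, averaged 6.38 ± 1.67 FPKM in cross B and 1.68 ± 0.665 FPKM in cross A (adjusted p = 7.14e-06). Eda2r, a member of the TNF receptor family, averaged 11.7 ± 2.91 FPKM in cross B and 4.71 ± 3.21 FPKM in cross A (adjusted p = 0.000803). Ei24 was lower in cross B (-0.59, adjusted p = 0.00451).

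A list of genes that control p53 was also counted. Of its 17 measured members 3 were higher and 1 lower in the Tfap2c knockdown, 0 and 0 in the Tead4 knockdown, and 2 and 0 in the double knockdown, with median log2 changes of 0.08, 0.03 and 0.10. The counts of higher genes are near the 16.3% of all genes in the Tfap2c knockdown and the 13.9% in the double knockdown. In the Tead4 knockdown, where limma called 0, 3 had an unadjusted p under 0.05, as did 21.1% of all genes. Chek1, the kinase of the replication checkpoint, fell to 19.4 ± 4.81 FPKM in the Tfap2c knockdown, against 36.1 ± 3.43 FPKM in the control (limma adjusted p = 7.27e-05). Atm, the kinase that responds to double-strand breaks, rose to 29.3 ± 2.01 FPKM with both factors depleted, against 17.2 ± 4.28 FPKM in the control (adjusted p = 0.000911). Rfwd2, a ubiquitin ligase for p53 also called COP1, rose in the Tfap2c and double knockdowns (0.45 and 0.44, adjusted p = 0.0143 and 0.0181), and Trp53rk, a kinase named for acting on p53, rose in the Tfap2c knockdown (0.97, adjusted p = 0.0109). Mdm4, the partner of MDM2, averaged 54.2, 40.7 and 43.1 FPKM in the Tfap2c, Tead4 and double knockdowns, against 50.4 FPKM in the control, and did not pass (adjusted p = 0.871, 0.399 and 0.454). The p53 relatives Trp63 and Trp73 reached at most 0.293 and 0.0577 FPKM in any library and were not tested.

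Genes that p21 is known to repress through the DREAM complex, most of them acting in mitosis or replication, were measured in full. Of 20 in the list 2 were higher and 7 lower in the Tfap2c knockdown, 2 and 2 in the Tead4 knockdown, and 2 and 5 in the double knockdown. Over all genes, 16.3% were higher and 13.2% lower in the Tfap2c knockdown, 3.35% and 2.78% in the Tead4 knockdown, and 13.9% and 11.3% in the double knockdown. Their median log2 changes were -0.09, -0.05 and -0.16. Cenpa, the centromeric histone, fell to 94.8 ± 4.93 FPKM with Tfap2c depleted and 127 ± 42.1 FPKM with both depleted, against 214 ± 17.7 FPKM in the control (limma adjusted p = 0.000128 and 0.00229), and averaged 224 ± 8.50 FPKM in the Tead4 knockdown (adjusted p = 0.877). Mcm5, a replication helicase subunit, fell in the Tfap2c knockdown (-0.71, adjusted p = 0.00180). Aurka, a mitotic kinase, fell in the Tead4 and double knockdowns (-0.33 and -0.40, adjusted p = 0.0215 and 0.00179), and Aurkb, the other Aurora kinase, rose in both (0.55 and 0.62, adjusted p = 0.00631 and 0.000741). Top2a, which untangles DNA, rose in the Tfap2c knockdown (0.46, adjusted p = 0.00633). Of 6 other CDK inhibitor genes 2 were measured, Cdkn2c and Cdkn2d, and neither passed in any knockdown in limma, with 0 at an unadjusted p under 0.05. Cdkn2d averaged 18.3, 17.5 and 17.2 FPKM in the Tfap2c, Tead4 and double knockdowns, against 12.4 FPKM in the control.

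Genes of the ATF4 stress response were read because some p53 targets, Sesn2 among them, answer to it too. Of 9 measured, 2 were higher in the Tfap2c knockdown, 2 in the Tead4 knockdown and 3 in the double knockdown, and 0 were lower in any. Of all genes 16.3%, 3.35% and 13.9% were higher and 13.2%, 2.78% and 11.3% lower. Atf4 itself averaged 69.5, 67.6 and 62.9 FPKM in the Tfap2c, Tead4 and double knockdowns, against 73.2 FPKM in the control, and did not pass (limma adjusted p = 0.643, 0.610 and 0.133). Ddit3, which encodes CHOP, rose to 10.0 ± 2.34 FPKM with Tead4 depleted and 12.04 ± 3.45 FPKM with both depleted, against 5.67 ± 2.65 FPKM in the control (adjusted p = 0.00808 and 0.000324). Nupr1, a stress-induced nuclear protein, rose to 128 ± 58.8 FPKM with Tead4 depleted and 74.1 ± 9.83 FPKM with both depleted, against 40.8 ± 3.58 FPKM in the control (adjusted p = 0.00139 and 0.0163). Psat1, a serine synthesis enzyme, rose in the Tfap2c and double knockdowns (0.39 and 0.37, adjusted p = 0.00163 and 0.00303).

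The pattern most like that of Cdkn1a was sought over the 16 libraries after the mean of each cross had been subtracted, among 11421 other genes. The 5 nearest were E2f5 (Pearson r 0.957), R3hdm4 (0.953), Dnajb9 (0.944), Khdc1b (0.932) and Zfp367 (0.931). E2f5, which encodes an E2F repressor, averaged 18.2, 14.8 and 22.2 FPKM in the Tfap2c, Tead4 and double knockdowns, against 5.70 FPKM in the control. Of the members, Sesn1 ranked 7 and Trp53inp1 29 in this order, while Phlda3 ranked 5158 with an r of 0.175. These correlations share libraries and groups with each other and are a description.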

How the data were processed

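FPKM per gene are the deposited values; the authors made them, and CASAVA, Trim Galore, STAR, Cufflinks and mm10 are named in the submitters' processing notes. Their versions and roles, and the annotation, were not given in the sources used here. Embryos were cultured in KSOM, and RNA was amplified by Smart-seq2, per the labels' protocols. The table held 43496 lines, 59 of which repeated an identifier and were summed, and 0 columns from outside the series. Absolute depth is unknown, so precision rests on the spread between libraries. Relative depth was read from steps of low FPKM values; 62.6% of ratios lay within 0.1 of a whole step, so it is approximate and no counts were recovered.

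The log2 scale was taken here from deposited FPKM. Genes that reached 1 FPKM in 4 or more libraries were fitted as log2(FPKM + 1) with limma 3.58.1 in R 4.3.3 (lmFit, eBayes with trend), with terms for group and cross over all 16 libraries. A second fit gave the group by cross interaction. Tests were two-sided, with Benjamini-Hochberg adjustment over all 11422 genes. The non-additive value is the double change minus both single changes. Figures were drawn with matplotlib 3.10.9. The fit was checked on simulated data. Library numbers were not used to pair the samples in the main fit. Alternatives were other pseudocounts, filters, scalings, covariates, variance settings, subsets of groups or crosses, and leaving out each library.

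The members, gene lists and tests were chosen with earlier results of these data known. Named were the 10 members, Tfap2c and Tead4, up to 3 genes of lowest p that passed in each list and comparison, Mdm4, Gadd45a, Bax, Bbc3, Pmaip1, Atf4, Trp63 and Trp73, and the 5 genes most like Cdkn1a. Only some of these are described.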

Additional observations from a re-analysis of the deposited data

Results flagged for a closer look

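In groups of 4 libraries, a value was singled out where its gap to the nearest other was larger, as a share of the group's range, than Dixon's test allows at 95%. Of 40 groups examined, 3 held such a value. The test's rate of about 1 in 20 assumes that the 4 values come from a single population. Each group here holds 2 libraries of each cross, so that rate does not carry over. Sesn1 in control library A2 stood at 7.78 FPKM, above the other controls and below every knockdown library. Mdm2 in Tead4 knockdown library B2 stood at 32.2 FPKM, above the other 3. Trp53 in double knockdown library B1 stood at 46.7 FPKM, below the other 3, which lay close together. No change of a member differed between the crosses past the threshold, and no file or column lay outside the comparisons.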

How the results depend on the processing

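Cdkn1a, Sesn1 and Trp53inp1 kept their direction and call in the Tfap2c and double knockdowns under all 28 alternatives each. With the cross left out of the fit, the count of members called was 1 in the Tead4 knockdown, 4 in the double knockdown, 1 for the double and 1 for the Tfap2c against the Tead4 knockdown, and 0 for the non-additive value. Within cross A alone (8 libraries) it was 5 for the Tfap2c and 0 for the Tead4 knockdown, 1 for the double and 1 for the Tfap2c against the Tead4 knockdown, and 0 for the non-additive value. Within cross B alone it was 3, 1 and 3 for the Tfap2c, Tead4 and double knockdowns against the control, and 0 for both contrasts with the Tead4 knockdown and the non-additive value. These subsets hold fewer samples. Without a filter on low values the non-additive count was 0, and quantile normalization gave 5 members for the double against the Tead4 knockdown; the cause was not tested. Leaving out 1 library at a time gave 6 to 8 members in the Tfap2c knockdown, 1 to 3 in the Tead4 knockdown, 6 to 8 in the double knockdown, 2 to 4 for the Tfap2c and 2 to 3 for the double against the Tead4 knockdown, and 5 to 7 between the crosses.

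Phlda3 alone changed sign. In the Tead4 knockdown (0.01) it was -0.10 with a pseudocount of 0.1, -0.024 after median-ratio rescaling, -0.050 after quantile normalization and -0.088 in cross A alone, and ranged from -0.30 to 0.22 with 1 library left out. In the double knockdown (0.04) it was -0.24 in cross B alone and ranged from -0.084 to 0.22. Of 837 refits of the 30 single-gene values, 18 of which were called, 62 lost a call and 3 gained one.

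Of 12 correlations between the deviations of same-numbered libraries, 2 were above 0.1, in a range from -0.17 to 0.18. Both were between the Tfap2c knockdown and the control, at 0.13 in cross A and 0.18 in cross B. At the negative end, the Tfap2c and double knockdowns stood at -0.17 in cross B. In cross A the double knockdown stood at -0.12 with the control and -0.11 with the Tead4 knockdown. With 2 libraries per group and cross, these values cannot show whether same-numbered libraries were prepared together. With the number as a replicate block, 7 members were called in the Tfap2c, 2 in the Tead4 and 7 in the double knockdown.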
